A study of Mus with 2 samples.

Results

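Inflammatory monocyte genes are described here by 6 members, Ly6c2, Ccr2, Plac8, Chil3, Vcan and Thbs1, out of 32285 genes counted on 2 tumor sections. The members were chosen by name as genes that classical monocytes are known to carry, and were matched by symbol in the tables of both sections. The tumors were CT26, a mouse colon carcinoma line, grown under the skin of female BALB/c mice aged 6 to 8 weeks. The rIL7 mouse received 10 µg of recombinant mouse IL-7 into the peritoneum on day 11 and again on day 13 after the graft, and the control mouse received PBS. Both tumors were labelled day 15, frozen, cut at 10 µm and placed on a Visium slide, where RNA is caught on a grid of barcoded spots and each molecule is counted once by its unique molecular identifier (UMI). The samples share the host strain, the tumor line and the site of the graft, and each group is 1 section of 1 tumor. The comparison addresses where monocyte transcripts lay in a control tumor and in a tumor after IL-7.

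Classical monocytes form in the bone marrow, leave it through the chemokine receptor Ccr2 and enter inflamed tissue and tumors, where they become macrophages or dendritic cells. In the mouse they are recognised by a high level of Ly6C protein, and they lose Ly6c2 and Ccr2 RNA while they mature into macrophages. Ccr2 binds Ccl2, Ccl7 and Ccl12. Ly6c2 encodes the Ly6C antigen that defines the subset. Plac8 is a small cysteine-rich protein of monocytes and of other leukocytes, and Chil3 (Ym1) is a secreted chitinase-like protein of monocytes and of alternatively activated macrophages. Vcan is the matrix proteoglycan versican, and Thbs1 is thrombospondin 1, a secreted matrix protein that binds Cd47 and Cd36 and can activate latent TGF-beta. None of these genes belongs to monocytes alone. Ly6c2 is also found in plasmacytoid dendritic cells and in T cells, Ccr2 in T and NK cells, Vcan in fibroblasts, and Thbs1 in fibroblasts, platelets and tumor cells.

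The control section held 2219 kept spots with 22951678 UMIs and the rIL7 section 1950 kept spots with 25729233 UMIs, at a median of 9623 and 12921.5 UMIs per spot. Levels are given as UMIs per 1000000 UMIs of the section or zone (CPM). With 1 section per group there was no replicate and no test between groups. Intervals are at 95% and cover counting error only, so they leave out the differences between animals, sections and libraries. Each section was also divided at the medians of its array rows and columns into 4 quadrants, which show the spread within a section and are not replicates. The 2 genes used as tumor markers, Baiap2l1 and Rpl39l, summed to 1293 CPM (control) and 1043 CPM (rIL7), and macrophage markers were abundant in both. A spot covers several cells, so that fewer cells of a type and less RNA per cell cannot be told apart, and no member could be assigned to a cell.

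Across the whole sections the members were at similar levels, with Ccr2 lower and Plac8 higher in the rIL7 tumor. Ccr2 (chromosome 9, 124101918 to 124109140) gave 81.1 CPM in the control (1861 UMIs) against 62.7 CPM after rIL7 (1614 UMIs), which was 1.29-fold lower (interval 1.21 to 1.38). Plac8 (chromosome 5, 100551589 to 100572253) gave 45.3 CPM (1040 UMIs) and 55.3 CPM (1423 UMIs), a ratio of 1.22 (interval 1.13 to 1.32). Both differences exceeded counting error, yet for each of these genes the quadrants of the sections overlapped.

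Ly6c2 (chromosome 15, 75108161 to 75112066) was at 27.8 CPM in the control (639 UMIs) against 25.9 CPM after rIL7 (666 UMIs), and the interval of the ratio, 0.833 to 1.04, held 1. Vcan (chromosome 13, 89655309 to 89743027) was counted at 4.88 CPM (112 UMIs) and 6.30 CPM (162 UMIs), with a ratio of 1.29 (interval 1.01 to 1.66). Thbs1 (chromosome 2, 118111876 to 118127133) stood at 38.7 CPM (889 UMIs) and 42.8 CPM (1100 UMIs), with a ratio of 1.104 (interval 1.01 to 1.21). The last 2 intervals lay just above 1. All coordinates are those of RefSeq on GRCm38.p6, the build of the count tables.

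Chil3 (chromosome 3, 106147554 to 106167564) was nearly undetected. The control held 6 UMIs and the rIL7 section 4, each in a different spot, or 10 of 48680911 UMIs in all. The ratio of 0.595 had an interval from 0.123 to 2.51, and no difference was detectable at this depth. Its close paralog Chil4 gave 0 UMIs in both sections, with intervals that reach 0.161 CPM (control) and 0.143 CPM (rIL7).

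Of the 5 members with a mean of at least 5 CPM over the sections, 0 differed by 1.5-fold in either direction, and Vcan reached that mean only through the rIL7 section. Among all 10721 genes at that level, 3.26% were at least 1.5-fold higher in the rIL7 section and 2.2% were at least 1.5-fold lower. Apart from Vcan, the log2 ratio was -0.11 for Ly6c2, -0.37 for Ccr2, 0.29 for Plac8 and 0.14 for Thbs1. The median over all genes tested was -0.00471.

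**Figure D1:**
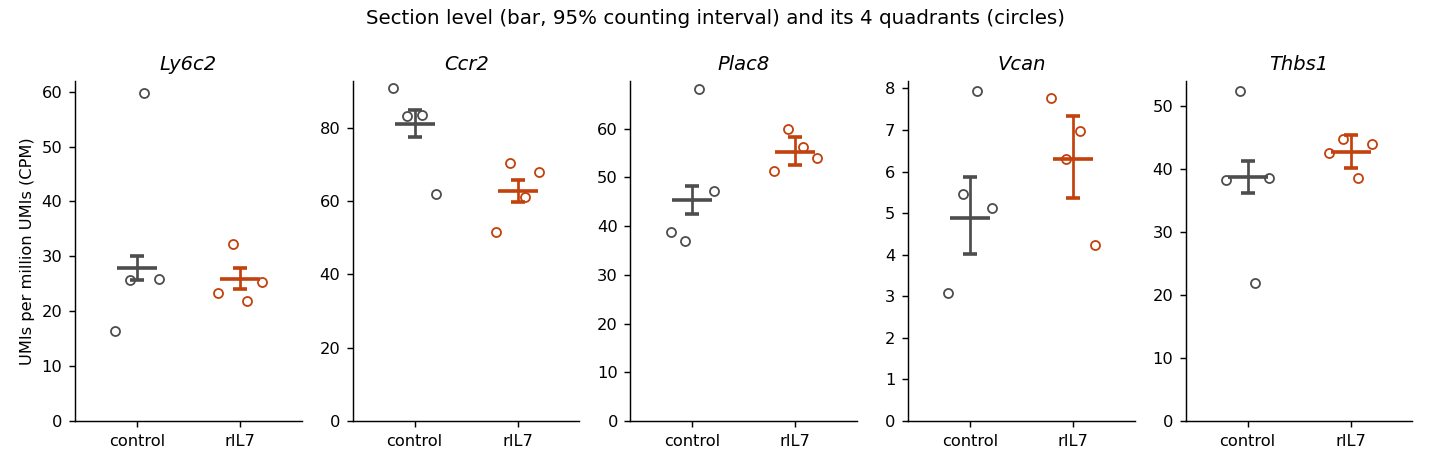
Level of 5 members in UMIs per 1000000 UMIs (vertical axis) in the control and rIL7 sections (horizontal axis). Bars with whiskers give the whole section with its 95% counting interval and circles give its 4 quadrants. The quadrants of the sections overlap for each gene, and 1 control quadrant stands at 59.8 CPM for Ly6c2.

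The quadrants showed how unevenly Ly6c2 lay in the control tumor. Its control quadrants held 16.5, 25.6, 59.8 and 25.9 CPM, while those of the rIL7 section held 23.3, 32.3, 21.9 and 25.3 CPM. One control quadrant was therefore far above the others, and the rIL7 quadrants were close together. Without that quadrant the control level fell to 21.5 CPM and the rIL7 section was 1.20-fold higher (interval 1.06 to 1.36). Without the lowest control quadrant the rIL7 to control ratio was instead 0.743 (interval 0.661 to 0.837). The direction of Ly6c2 between the sections thus rested on which quadrants of the control tumor were counted. In the control section the 5 blocks of spots richest in Ly6c2 held 25.9% of its UMIs and 5.93% of all UMIs, against 16.9% and 5.03% in the rIL7 section.

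The same control quadrant was also the highest for Plac8, at 68.2 CPM against 36.9 to 47.3 CPM in the others, and for Vcan, at 7.94 CPM against 3.09 to 5.45 CPM. A list of 6 interferon-stimulated genes (Isg15, Ifit1, Ifit3, Irf7, Rsad2, Oas1a) summed to 866 CPM there and to 338 to 502 CPM in the other control quadrants. Thbs1 was lowest in that quadrant, at 21.96 CPM against 38.3 to 52.5 CPM. Ccr2 had its lowest control value, 61.9 CPM, in a different quadrant, and the other quadrants were at 83.2 to 90.8 CPM. Ccr2 stayed lower in the rIL7 section whichever quadrant of either section was left out, with ratios of 0.720 to 0.835.

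**Figure D2:**
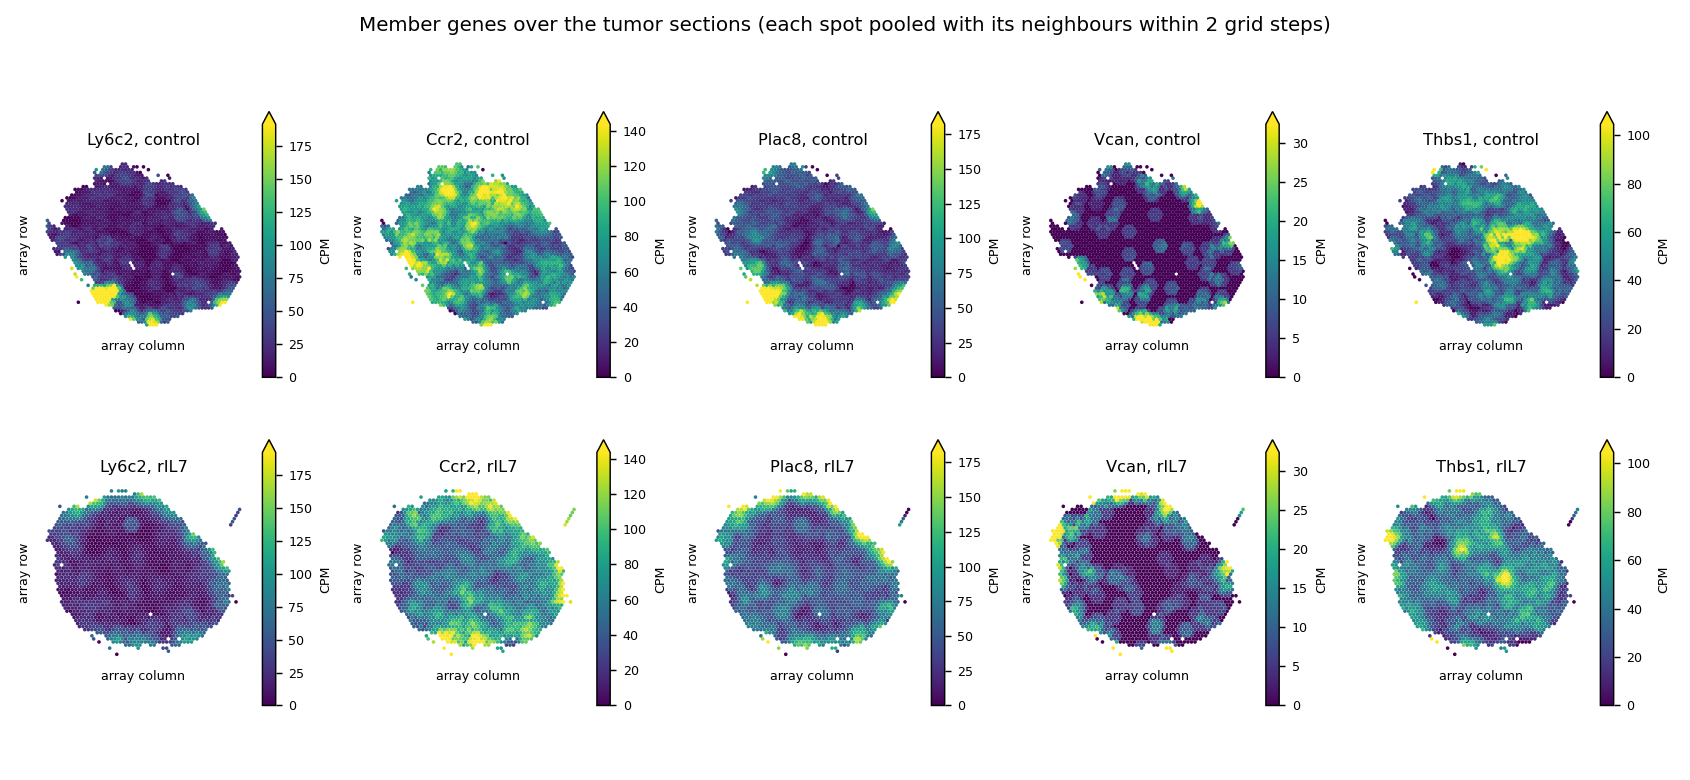
Spots of the control (top) and rIL7 (bottom) sections at their array column and row, coloured by the level of each member in UMIs per 1000000 UMIs after pooling each spot with its neighbours within 2 grid steps. Colours saturate at the 98th percentile, and for Vcan most discs stand for a single UMI. Ly6c2 and Plac8 share a bright patch at the lower left rim of the control section and rim the rIL7 section.

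The clearest pattern was position. Taken over the whole tissue outline, Ly6c2, Plac8 and Vcan were concentrated at the edge of both tumors, and Ccr2 was higher at the edge of the rIL7 tumor. Over the same outline Thbs1 was not raised at the edge of either section beyond counting error, though its rIL7 quadrants went both ways. The edge was taken as the spots within 2 grid steps of the tissue outline, which were 401 control and 330 rIL7 spots, and the interior as the remaining 1806 and 1599 spots of the main piece.

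Edge spots of the control held 52.3 CPM of Ly6c2 and interior spots 21.6 CPM, a ratio of 2.42 (interval 2.049 to 2.85). The matching rIL7 values were 67.0 and 18.2 CPM, a ratio of 3.68 (interval 3.14 to 4.31). Plac8 stood at 74.3 and 38.2 CPM in the control, a ratio of 1.95 (interval 1.70 to 2.22), and at 107.8 and 45.4 CPM after rIL7, with a ratio of 2.38 (interval 2.12 to 2.67). Both genes were higher at the edge whichever quadrant was left out, from 2.20 to 2.73-fold in the control and from 2.85 to 4.62-fold in the rIL7 section for Ly6c2, and from 1.70 to 2.26-fold and 1.91 to 2.84-fold for Plac8.

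Vcan showed the same direction on fewer counts. Control edge spots held 10.3 CPM (46 UMIs) and control interior spots 3.43 CPM (63 UMIs), a ratio of 3.003 (interval 2.01 to 4.46), while the rIL7 section held 15.3 and 4.25 CPM (60 and 92 UMIs), a ratio of 3.595 (interval 2.55 to 5.03). Its mean over edge and interior passed the 5 CPM minimum only through the edge.

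Ccr2 was even across the control tumor, with edge and interior levels of 81.0 and 81.2 CPM (ratio 0.997, interval 0.887 to 1.12). In the rIL7 section the edge held 82.1 CPM and the interior 58.6 CPM (ratio 1.40, interval 1.23 to 1.58). The edge levels of the sections differed by a ratio of 1.01 (interval 0.870 to 1.18), and the interior levels by 0.722 (interval 0.669 to 0.779). In the interior 0 of the 4 members tested differed by 1.5-fold between the sections, beside 2.48% of 10683 genes higher and 2.48% lower in the rIL7 section. Taken over the whole outline, the lower Ccr2 of the rIL7 section was therefore a difference of the interior. The rIL7 edge was mixed, however. Its quadrants 1 and 3 held 58.2 and 56.8 CPM, below the lowest edge quadrant of the control, at 63.6 CPM. Its quadrants 2 and 4 held 111.8 and 106.8 CPM, above every edge quadrant of the control.

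Thbs1 levels at the control edge and interior were 33.5 and 39.9 CPM (ratio 0.840, interval 0.7003 to 1.003), and those of the rIL7 section 44.6 and 42.1 CPM (ratio 1.06, interval 0.896 to 1.25). Neither interval excluded 1 over the whole outline. The rIL7 edge and interior held 62.3 and 38.6 CPM in quadrant 1 and 51.3 and 34.6 CPM in quadrant 3. They held 34.0 and 47.1 CPM in quadrant 2 and 27.9 and 46.2 CPM in quadrant 4. Without rIL7 quadrant 4 the rIL7 ratio was 1.21 (interval 1.006 to 1.445). Without control quadrant 3 the control ratio was 0.775 (interval 0.635 to 0.939). Chil3 had 1 UMI at the edge and 5 in the interior of the control, and 0 and 4 in the rIL7 section, where the interval at the edge reaches 0.940 CPM.

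Thus Ly6c2 and Plac8 were at least 1.5-fold higher at the edge in the control, where 1.28% of 10675 genes were, and in the rIL7 section, where 8.86% of 10822 genes were. Vcan was past that fold in both sections too, but it is not counted beside these shares, since it was measured at the minimum level only where it was high. None of the 5 members was at least 1.5-fold lower at the edge, against 2.17% and 6% of all genes.

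The log2 edge ratio was larger in the rIL7 section by 0.61 for Ly6c2 (interval 0.28 to 0.93), by 0.49 for Ccr2 (0.25 to 0.73) and by 0.29 for Plac8 (0.04 to 0.54). For Vcan the gap was 0.26 (-0.46 to 0.98) and for Thbs1 0.33 (-0.01 to 0.68), both within counting error. Without 1 rIL7 quadrant the rIL7 edge ratio of Plac8, 1.91, was no longer above that of the control. Many other genes were also more unequal between edge and interior in the rIL7 section, as the background shares show. At the edge alone, 0 of 5 members differed by 1.5-fold between sections, beside 10.7% of 10804 genes higher and 6.59% lower in the rIL7 section. Edge ratios of rIL7 over control were 1.28 for Ly6c2 (interval 1.07 to 1.53), 1.45 for Plac8 (1.25 to 1.68), 1.49 for Vcan (0.995 to 2.23) and 1.33 for Thbs1 (1.06 to 1.67).

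The edge itself was uneven. Ly6c2 ranged from 22.3 to 106 CPM over the edge of the 4 control quadrants and from 28.4 to 109 CPM over the edge of the 4 rIL7 quadrants, so that its richest stretch was 4.74 and 3.83 times its poorest. In the rIL7 interior the 4 quadrants held 15.7 to 20.2 CPM. Plac8 ranged from 49.9 to 108 CPM along the control edge and from 66.0 to 160.4 CPM along the rIL7 edge. Vcan along the rIL7 edge ran from 3.64 to 28.6 CPM, and the quadrant with the lowest edge held 4.01 CPM in its interior. In rIL7 quadrant 3 the edge and interior held 28.4 and 20.2 CPM of Ly6c2 and 66.0 and 52.8 CPM of Plac8. Ccr2 was lower at the edge of that quadrant, at 56.8 against 61.5 CPM in its interior. The rIL7 edge and interior held 58.2 and 49.8 CPM of Ccr2 in quadrant 1. They held 111.8 and 62.0 CPM in quadrant 2, and 106.8 and 62.4 CPM in quadrant 4. Whichever rIL7 quadrant was left out, the edge ratio of Ccr2 was 1.24 to 1.58. Spots at the border of the array made up 6 of the control edge spots and 0 of those of the rIL7 section.

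By distance, the Ly6c2 level was lower in each zone inward in both sections. In the control it went from 52.3 CPM at steps 1 to 2 through 40.7, 24.7 and 14.3 CPM to 11.4 CPM at 12 steps or more. In the rIL7 section it went from 67.0 through 37.8, 21.7 and 16.0 to 8.91 CPM. The intervals of the first 2 and of the last 2 control zones overlapped, as did those of steps 5 to 7 and 8 to 11 in the rIL7 section. In each zone from step 3 inward the intervals of the sections overlapped, while over the whole interior the rIL7 to control ratio was 0.841 (interval 0.730 to 0.970). Without the Ly6c2-rich control quadrant the control interior held 17.0 CPM, against 18.2 CPM in the rIL7 interior.

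The Plac8 level was lower in each zone inward in the control and levelled off in the rIL7 section. In the control it went through 74.3, 53.9, 39.3 and 33.2 CPM and was lowest at 12 steps or more (interval 25.3 to 35.3 CPM). That interval overlapped those of steps 5 to 7 (33.9 to 45.4 CPM) and 8 to 11 (28.3 to 38.6 CPM). In the rIL7 section Plac8 fell from 107.8 to 40.9 CPM and then stayed at 42.2 and 40.4 CPM. Vcan ran from 10.3 to 2.25 CPM in the control and from 15.3 to 2.64 CPM in the rIL7 section.

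Ccr2 separated the sections with depth. In the control it was 81.0, 87.0, 86.5 and 81.6 CPM in the first 4 zones and 71.2 CPM in the deepest. In the rIL7 section it declined through 82.1, 76.9, 69.5 and 52.1 to 48.5 CPM. Thbs1 was lowest at steps 3 to 4 in both sections, at 30.4 and 35.0 CPM, and highest at 12 steps or more, at 46.1 and 46.3 CPM, with overlapping intervals between neighbouring zones.

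**Figure D3:**
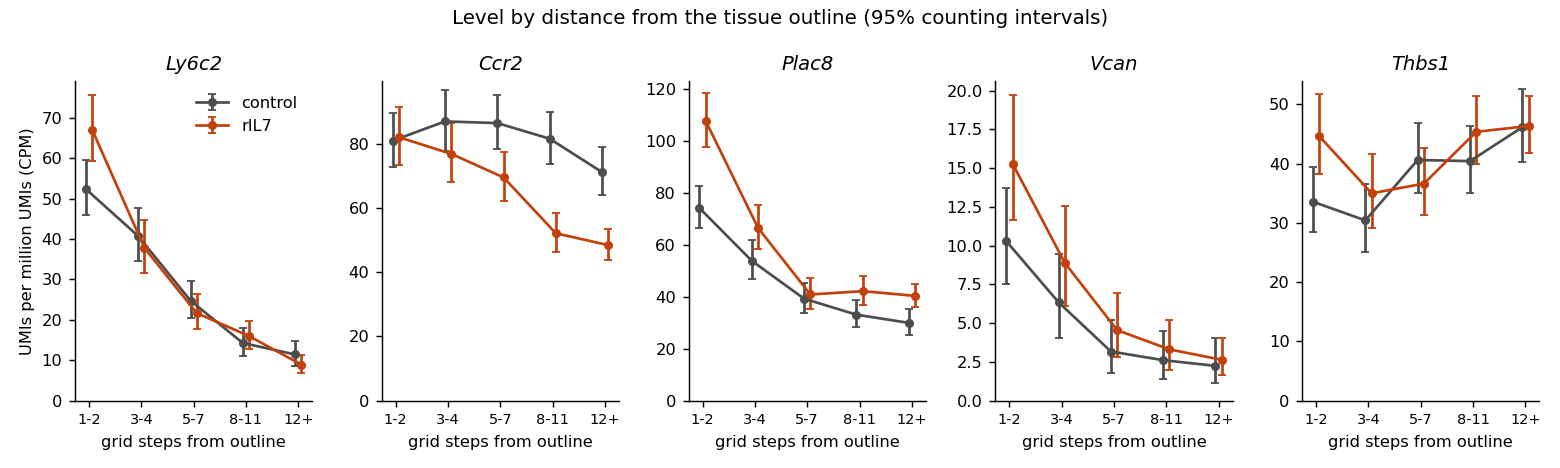
Level of 5 members in UMIs per 1000000 UMIs (vertical axis) in 5 zones of grid steps from the tissue outline (horizontal axis), with 95% counting intervals, in the control and rIL7 sections. Ly6c2, Plac8 and Vcan are highest at steps 1 to 2 in both sections, while Ccr2 falls with depth from 82.1 to 48.5 CPM in the rIL7 section and Thbs1 is highest in the deepest zone.

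The ligands and partners of the members followed other courses. Of 10 partner genes tested, 2 were at least 1.5-fold higher and 1 lower in the rIL7 section, beside 3.26% and 2.2% of all genes. The Ccr2 ligands Ccl7 and Ccl12 were the higher ones. Ccl7 was at 112 CPM in the control and 241 CPM after rIL7 (ratio 2.16, interval 2.07 to 2.27) and Ccl12 at 135 and 268 CPM (ratio 1.99, interval 1.90 to 2.07). Ccl2, the main ligand of Ccr2, went from 644 to 804 CPM (ratio 1.25, interval 1.22 to 1.28). The receptor and its ligands thus differed in opposite directions between these sections.

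The ligands were not edge genes. Ccl7 had an edge to interior ratio of 1.08 in both sections, and Ccl12 of 1.11 and 1.04. Ccl2 was lower at the edge, with ratios of 0.918 (control) and 0.786 (rIL7). Across blocks of spots in the rIL7 section, Ly6c2 and Ccl2 had a Spearman rho of -0.511, and in the control of -0.157.

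Among the partners of Thbs1 and Vcan, Tgfb1, the cytokine that thrombospondin 1 can activate, went from 48.8 CPM in the control to 28.3 CPM after rIL7, a ratio of 0.581 (interval 0.529 to 0.639). Cd47 gave 204 and 234 CPM, Cd44, a receptor for hyaluronan bound to versican, 193 and 234 CPM, and Cd36 7.84 and 8.78 CPM. Tlr2 was at 15.7 and 15.1 CPM. The versican-cleaving proteases Adamts1 and Adamts4 were within counting error between the sections, with ratios of 0.963 and 1.11, and Adamts5 gave 71 and 97 UMIs. At the edge of the rIL7 section Cd36 and Tlr2 were 4.29 and 2.56 times their interior level, against 1.23 and 1.01 times in the control.

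Single spots held too few member UMIs to show which genes lay together. With every spot thinned to 5900 UMIs, the 15 pairs of members had a median rho of 0.005 over 2002 control spots and 0.015 over 1869 rIL7 spots. The strongest pair was Ly6c2 and Plac8, with rho of 0.137 and 0.095. They were found together in 76 control spots, where 46.5 would be met if independent, and in 91 rIL7 spots, where 66.5 would be. These values are weak, and spots of a section share its library.

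Over larger areas the members fell into an order. Levels were summed in blocks of 6 array rows by 12 array columns with at least 18 spots, giving 63 control and 54 rIL7 blocks. Blocks share a library and neighbour each other, so rho is a description with no test. Ly6c2 and Plac8 had rho of 0.621 and 0.647 in the control and rIL7 sections, and Plac8 and Vcan of 0.496 and 0.466. Ly6c2 and Vcan gave 0.434 and 0.620. In blocks of interior spots Ly6c2 and Plac8 gave 0.467 and 0.405. Ly6c2 and Vcan gave 0.238 and 0.613 there, and Plac8 and Vcan 0.400 and 0.287.

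Ccr2 stood apart from this trio in the control. Its rho with Ly6c2 was 0.258 (control) and 0.599 (rIL7), and with Plac8 0.0105 and 0.339. Thbs1 ran against Ly6c2 and Plac8 in the control, with rho of -0.371 and -0.283, and had rho near 0 with them in the rIL7 section, with -0.0432 and 0.00370. Ly6c1, the neighbouring paralog that is near-identical to Ly6c2 and is also expressed by endothelial cells, had rho of 0.671 and 0.773 with Ly6c2. Reads of these genes may have been split between them by the counting, so the Ly6c2 level is uncertain to that extent. Ly6c1 shared the edge pattern, at 95.5 and 54.9 CPM in the control edge and interior and at 127.9 and 54.5 CPM in the rIL7 section.

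The interferon-response list was the list with which Ly6c2 and Plac8 ran most alike in the control. Across blocks its rho with Ly6c2 was 0.640 (control) and 0.639 (rIL7), and with Plac8 0.663 and 0.594. When spots were ranked by the list and divided into 5 groups of equal size (quintiles), Ly6c2 was 11.8, 13.4, 14.9, 21.5 and 84.0 CPM from the lowest to the highest quintile of the control, and 14.8, 16.5, 18.3, 26.7 and 55.8 CPM in the rIL7 section. The step lay at the top quintile in both, and the ratio of the highest to the lowest was 7.14 (interval 5.33 to 9.72) and 3.77 (interval 2.90 to 4.93). With each quadrant left out in turn the control ratio was 5.34 to 9.29, lowest without the Ly6c2-rich one. Plac8 rose 3.26 and 2.30-fold over the same quintiles, Vcan 3.42 and 2.17-fold, and Ccr2 1.37 and 1.497-fold.

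The interferon list was itself an edge list, with 6 of 6 genes at least 1.5-fold higher at the edge in each section. Of all genes 1.28% (control) and 8.86% (rIL7) were past that fold. The list summed to 748 and 398 CPM at the edge and in the interior of the control and to 576 and 338 CPM in the rIL7 section. In blocks of interior spots alone its rho with Ly6c2 was 0.484 and 0.519. Thbs1 went the other way in the control, from 44.9 CPM in the lowest to 28.9 CPM in the highest interferon quintile, and had 37.5 and 42.7 CPM in the rIL7 section. The list as a whole was not higher in the rIL7 tumor, at 375 CPM against 468 CPM in the control. Between the sections 0 of 6 genes were past 1.5-fold, beside 3.26% of all genes higher and 2.2% lower.

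Macrophage markers (11 genes led by Apoe, C1qb, C1qa and C1qc) were used to rank spots in the same way. Ly6c2 rose from 10.8 CPM in the lowest to 43.5 CPM in the highest macrophage quintile of the control (ratio 4.03, interval 2.88 to 5.77), and from 10.4 to 63.4 CPM in the rIL7 section (ratio 6.10, interval 4.56 to 8.30). Ccr2 rose from 59.6 to 98.9 CPM and from 46.5 to 89.7 CPM. Plac8 rose 1.961 and 2.80-fold, while Thbs1 fell from 54.2 to 39.0 CPM in the control and held 38.5 and 41.0 CPM in the rIL7 section. Block rho of Ccr2 with the macrophage list was 0.665 and 0.522, and with the fibroblast list 0.662 and 0.368. Block rho of Ly6c2 with the macrophage list was 0.348 in the control, from 0.0733 to 0.616 with 1 quadrant left out, and 0.677 in the rIL7 section, from 0.651 to 0.761. The control value thus rested on which quadrants were counted.

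Relative to macrophage transcripts, the 5 detectable members were each lower at the edge of the rIL7 tumor, beyond counting error for all but Vcan, and Ccr2 and Ly6c2 were also lower in the interior. Ccr2 gave 22.5 UMIs per 1000 macrophage-list UMIs in the control against 15.6 after rIL7, a ratio of 0.693 (interval 0.648 to 0.741), with 0.586 at the edge and 0.726 in the interior. Ly6c2 gave 7.72 and 6.42 per 1000 (ratio 0.832, interval 0.746 to 0.929), with a ratio of 0.846 in the interior (interval 0.734 to 0.975). These Ly6c2 ratios include the Ly6c2-rich control quadrant. Without it the control held 21.5 CPM of Ly6c2, and 17.0 CPM in its interior, against 25.9 and 18.2 CPM after rIL7. The ratios to macrophage transcripts were not computed without that quadrant. Over the whole sections Plac8 was at 12.6 and 13.7, Vcan at 1.35 and 1.56, and Thbs1 at 10.7 and 10.6 per 1000. At the edge the ratios were 0.741 for Ly6c2 (interval 0.619 to 0.887), 0.840 for Plac8 (0.726 to 0.973), 0.860 for Vcan (0.576 to 1.29) and 0.769 for Thbs1 (0.615 to 0.963), so that the direction of Plac8 turned there. The macrophage list summed to 3951 and 3519 CPM at the edge and interior of the control and to 6830 and 3499 CPM in the rIL7 section. The edge CPM of Ccr2 had a ratio of 1.01 between the sections, and that of Ly6c2, Plac8, Vcan and Thbs1 ratios of 1.28 to 1.49. Apoe alone took 35.7% (control) and 40.8% (rIL7) of the list UMIs. At the edge 3 of 11 list genes were at least 1.5-fold higher in the rIL7 section, beside 10.7% of all genes. The ratios to macrophage transcripts thus depend most on the abundant genes of the list.

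**Figure D4:**
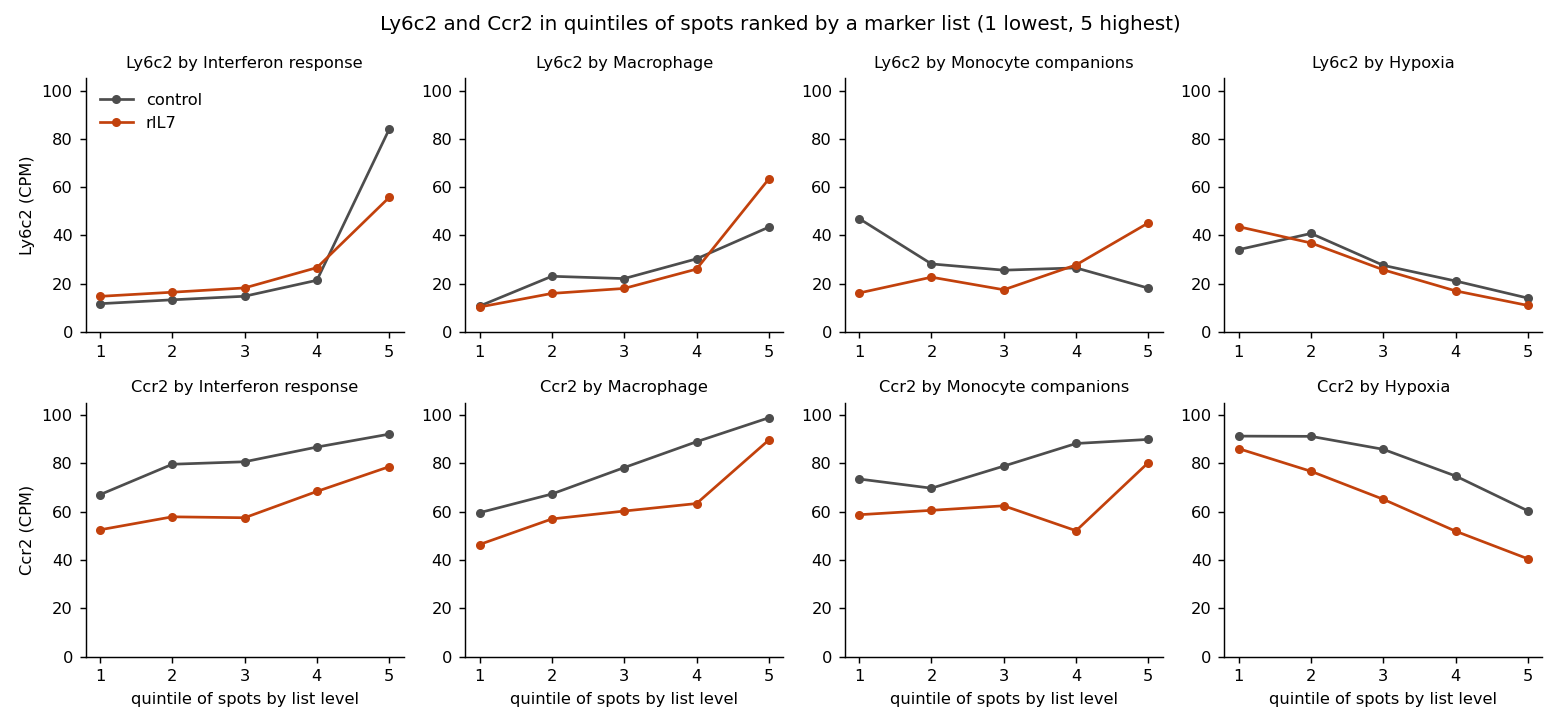
Ly6c2 (top) and Ccr2 (bottom) in UMIs per 1000000 UMIs (vertical axis) in quintiles of spots ranked by the summed level of a marker list (horizontal axis, 1 lowest to 5 highest), in the control and rIL7 sections. Ly6c2 climbs to 84.0 and 55.8 CPM in the top interferon quintile, and its course over the monocyte companion list is opposite in the sections.

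The companions of classical monocytes did not travel together. This list of 13 genes (among them Lyz2, Fn1, Itgam and Ms4a4c) summed to 5074 CPM (control) and 5935 CPM (rIL7), but S100a4, Lyz2 and Fn1, which macrophages, fibroblasts and tumor cells also express, took 55.2%, 26.9% and 12.03% of its control UMIs. Ranked by this list, Ly6c2 fell from 47.0 CPM in the lowest to 18.2 CPM in the highest control quintile and rose from 16.2 to 45.2 CPM in the rIL7 section. Block rho with Ly6c2 was -0.143 (control) and 0.524 (rIL7) for the list. Gene by gene it was 0.0182 and 0.584 for Lyz2, -0.296 and -0.325 for Fn1, -0.281 and -0.377 for S100a4 and 0.161 and 0.458 for Itgam. Ms4a4c, a membrane protein of monocytes, gave 0.696 and 0.815.

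Between the sections 4 of 12 companions tested were at least 1.5-fold higher in the rIL7 tumor and 1 was lower, beside 3.26% and 2.2% of all genes. Ms4a4c was the lower one, with 67.6 CPM in the control against 30.3 CPM after rIL7 (ratio 0.448, interval 0.411 to 0.489), and it was lower at the edge (ratio 0.629) and in the interior (ratio 0.410). Among the higher ones, and chosen for naming after their values were seen, were F13a1 (ratio 3.23), Hp (2.18) and Clec4e (1.67). Clec4e was at 5 CPM or more in the rIL7 section only and had overlapping quadrants. It passed the minimum only where it was high, so the count of 4 is not read against the share of all genes. Lyz2 and Fn1 stood at ratios of 1.49 and 1.45. Of 5 nonclassical monocyte genes tested, 0 were higher and Cx3cr1 was lower, with 13.9 and 7.66 CPM. Cd300e, under the 5 CPM minimum and named after its values were seen, had 161 and 25 UMIs. Of 8 transcription factors and growth factor receptors of the lineage, Irf8, also chosen after its value was seen, was higher, with 33.9 and 65.3 CPM, and Cebpb lower, with 241 and 146 CPM, while Csf1r gave 170 and 159 CPM and Spi1 90.2 and 93.4 CPM. Genes used to mark monocytes therefore differed in both directions between the sections.

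Alternatively activated macrophage genes, with which Chil3 is usually grouped, differed between the sections where Chil3 did not detectably. Of 4 tested genes of that list 3 were at least 1.5-fold higher in the rIL7 section, beside 3.26% of all genes, among them Arg1, the arginine-degrading enzyme, at 12.4 and 85.7 CPM, and Mgl2, at 9.02 and 29.9 CPM. Ly6c2 lay away from them, with block rho of -0.316 and -0.681 for the list and of -0.0128 and -0.737 for Arg1.

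Tumor and hypoxia markers ran against Ly6c2. Over quintiles ranked by Baiap2l1 and Rpl39l, Ly6c2 fell from 47.9 to 13.1 CPM in the control and from 45.1 to 15.7 CPM in the rIL7 section. Over quintiles ranked by 8 hypoxia genes (among them Pgk1, Bnip3, Ndrg1 and Slc2a1), it fell from 34.2 to 14.1 CPM and from 43.6 to 11.0 CPM. Ccr2 fell with the hypoxia list as well, from 91.3 to 60.4 CPM in the control and from 86.1 to 40.5 CPM in the rIL7 section, with block rho of -0.354 and -0.760. Thbs1 rose with it, from 33.7 to 53.9 CPM (interval of the ratio 1.29 to 1.98) and from 36.8 to 51.0 CPM (ratio 1.39, interval 1.14 to 1.69). The direction of these courses was shared by the sections.

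Over blocks, Ly6c2 and T cell markers ran together in the rIL7 tumor, as did Ly6c2 and the markers of several other immune cells. Across blocks the rho of Ly6c2 with 9 T cell genes (led by Trac, Cd3g, Cd8a and Lck) was 0.836 in the rIL7 section and 0.241 in the control. It was 0.687 and 0.115 in blocks of interior spots, and whichever quadrant was left out it was 0.795 to 0.902 in the rIL7 section and 0.0998 to 0.408 in the control. Ccr2 had 0.622 and 0.466, and Plac8 0.630 and 0.253. The T cell list held 3642 UMIs in the rIL7 section and 952 in the control, so that control blocks held fewer UMIs of the list, and the part of this gap was not tested. The list summed to 354 and 102 CPM at the edge and interior of the rIL7 section and to 47.6 and 39.9 CPM in the control. The rIL7 block rho of Ly6c2 was also 0.764 with the NK cell, 0.677 with the macrophage and 0.675 with the plasmacytoid dendritic cell list. With the tumor list it was -0.685. Over single thinned spots the rho of Ly6c2 with the T cell list was 0.228 (rIL7) and 0.0403 (control).

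Markers of some other cells that may carry the members were also higher at the rIL7 edge, and those of others were lower. The plasmacytoid dendritic cell list of 5 genes gave 56.6 and 13.1 CPM at the edge and interior of the rIL7 section and 17.2 and 9.84 CPM in the control, and its defining marker Siglech had 88 and 15 UMIs in the whole sections. The NK cell list gave 72.6 and 41.0 CPM, and 24.2 and 20.99 CPM. Fibroblast genes (led by Col1a2, Col3a1 and Dcn) summed to 3370 and 1960 CPM in the rIL7 section and to 1952 and 1999 CPM in the control, and Vcan rose 3.56-fold (interval 2.22 to 5.89) from the lowest to the highest fibroblast quintile of the rIL7 section, with a control ratio of 1.62 (0.832 to 3.30). Endothelial genes gave 147 and 64.1 CPM, and 81.6 and 76.1 CPM. The platelet list was lower at the rIL7 edge than in the interior, at 20.9 and 24.5 CPM, as was the tumor list, at 757 and 1096 CPM. The platelet list gave 21.7 and 23.9 CPM in the whole control and rIL7 sections, with its marker Gp9 at 0 UMIs in both. The neutrophil list summed to 187 and 384 CPM, and 3 of its 4 tested genes were at least 1.5-fold higher in the rIL7 section, beside 3.26% of all genes. S100a9, which monocytes also express, had 1977 and 4207 UMIs, S100a8 712 and 1562 UMIs and Mmp9 1085 and 3438 UMIs, while Ly6g, which defines neutrophils, was at 0 UMIs in both sections. The part of these cells in the member levels was not tested.

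**Figure D5:**
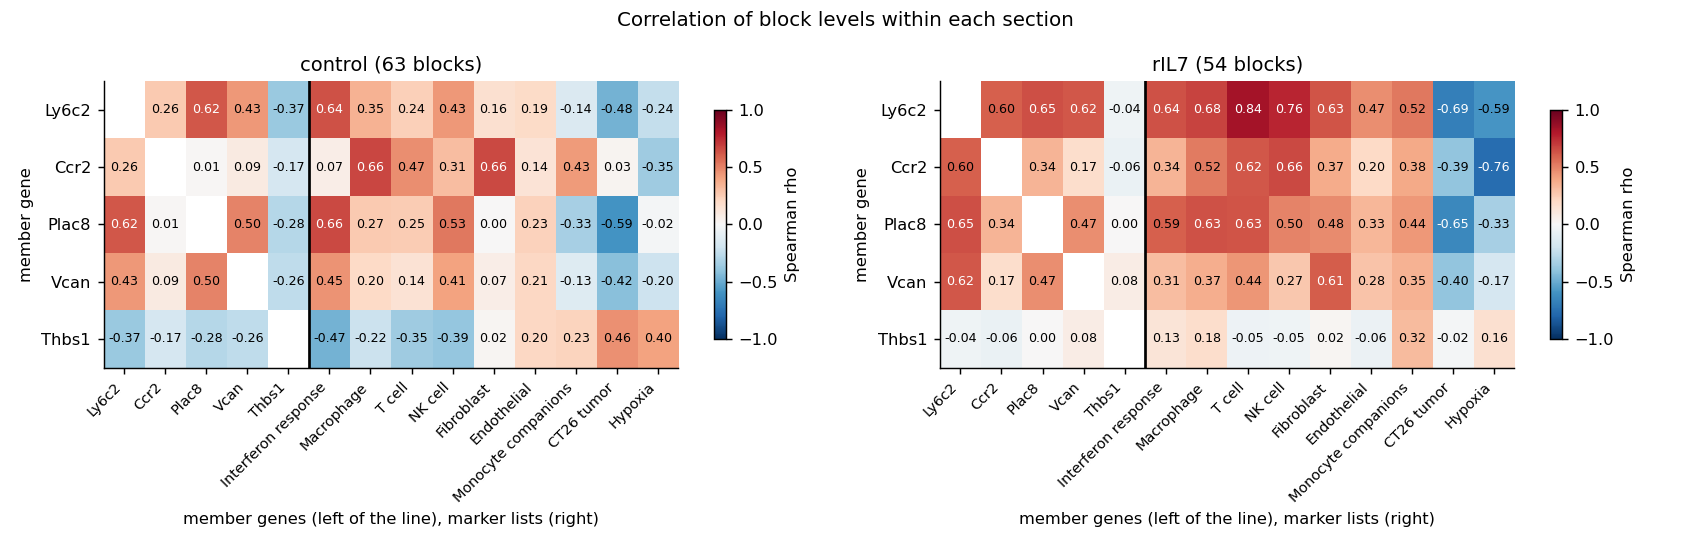
Spearman rho of block levels (colour and number) between each of 5 members (vertical axis) and the other members or marker lists (horizontal axis), over 63 control and 54 rIL7 blocks. Ly6c2, Plac8 and Vcan are positively related in both sections, and the rho of Ly6c2 with the T cell list is 0.24 (control) and 0.84 (rIL7).

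The genes most like each member were taken as those with the highest rho in the less similar of the sections, over the same blocks and among 7613 genes. For Ly6c2 these were Ifi27l2a, an interferon-induced gene, with rho of 0.730 and 0.820, Ms4a4c, and Cxcl10, an interferon-induced chemokine, with 0.720 and 0.690. For Plac8 they were Ly6a (0.727 and 0.713), Fcer1g (0.703 and 0.723) and Ifi27l2a (0.673 and 0.702). Vcan was most like Ly6c1, Ifi27l2a and Ms4a4c, the first at 0.519 and 0.654. Ifi27l2a was thus shared by Ly6c2, Plac8 and Vcan. For Ccr2 the genes were H2-K1, a class I histocompatibility gene (0.666 and 0.704), Ifi30, a lysosomal thiol reductase (0.656 and 0.736), and the chemokine Cxcl16 (0.699 and 0.636). For Thbs1 they were the lysosomal protease Ctsd (0.514 and 0.502), Sema3f and Hprt. The highest for Chil3 was 0.300 in each section, and with 10 UMIs these values carry no information on likeness.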

How the data were processed

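Visium libraries of 2 CT26 tumor sections were analysed. Per the labels and the study's methods the authors used Space Ranger 1.1.0 with mm10, and the deposited tables hold unnormalized counts of UMIs for each gene in each spot, with array positions. Spots over tissue were kept with under 10% mitochondrial UMIs and more than 200 genes, which removed 2 control spots and 1 rIL7 spot. Counts were summed and divided by the total of the section or zone. Of the spot barcodes 1702 occur in both tables, since the slides share 1 array layout, and 18902 genes differ in their totals.

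With Python 3.11.15 and scipy 1.17.1, intervals are exact Poisson for sums and exact conditional binomial for ratios. Grid steps were counted from the outline of the largest tissue piece, which left out 12 and 21 spots. For pair correlations spots under 5900 UMIs were left out (217 control, 81 rIL7) and the others thinned to that number. Steps were tested on simulated data. Scaling used edgeR 4.0.16 and DESeq2 1.42.0 for alternatives only. Of the list genes all 141 matched RefSeq symbols.

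The members and lists were chosen with earlier results of these data known. The named genes are the members, their partners and paralogs, the 4 most abundant genes of each list, and the 3 genes most like each member across blocks. F13a1, Hp, Clec4e, Cd300e and Irf8 fall outside that rule and were named after their values were seen, and Ly6g, Gp9 and Siglech were named as defining markers. The values of 1 list gene are not reported here.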

Additional observations from a re-analysis of the deposited data

Results flagged for a closer look

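Some members took opposite courses in the sections when spots were ranked by a monocyte list and the highest quintile was set against the lowest. The difference between the sections was not tested, since each group is 1 section. By the classical monocyte companion list, the log2 ratio of Ly6c2 was -1.37 (control) and 1.48 (rIL7). For Plac8 it was -0.68 and 0.73, and for Vcan -1.23 and 1.03. By the nonclassical monocyte list (led by Nr4a1, Eno3, Spn and Cx3cr1), Ly6c2 gave -0.58 (control) and 0.70 (rIL7). The companion list is mostly S100a4, Lyz2 and Fn1. Without the Ly6c2-rich control quadrant, the companion value of Ly6c2 in the control was -0.58 and that of Plac8 -0.31, the nonclassical value of Ly6c2 was -0.16, and in rIL7 interior spots the companion value of Vcan was -0.13.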

How the results depend on the processing

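No paired analysis was possible because each group held 1 section. Values here are log2 ratios unless named otherwise, and leaving out quadrants was chosen after seeing the data. Of 87 values of rIL7 over control, 74 moved by less than counting error, 12 by more and 1 changed the sign of a value beyond counting error. That one was Ccr2, at 0.0194 at the edge alone, against -0.47 in the interior and -0.22 with spots weighted equally. Ly6c2, at -0.11 and within counting error in the whole sections, also changed sign, at the edge alone and without control quadrant 3. At the edge alone Ly6c2 was 0.36, Plac8 0.54 and Thbs1 0.41. Without control quadrant 1, Ly6c2 was -0.43, Ccr2 -0.26 and Plac8 0.17. Without control quadrant 2 Thbs1 was 0.29, without quadrant 3 Ly6c2 was 0.26 and Plac8 0.44, and without quadrant 4 Ccr2 was -0.47. Other scalings (trimmed mean of M values, median of ratios) shifted all log2 ratios by 0.0112 and 0.0119.

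Of 95 edge over interior values, 83 stayed within counting error and 12 moved, with Ly6c2, Plac8 and Vcan above 0 under every alternative run. Control Ly6c2 was 1.51 with an edge of 3 steps, control Vcan 0.96 and rIL7 Thbs1 0.33 with 1 step. Without control quadrant 1, Ccr2 was 0.18 and Plac8 1.17. In the rIL7 section, Vcan was 1.28 and Thbs1 -0.17 without quadrant 1, Ly6c2 was 1.51 and Plac8 0.93 without quadrant 2, and Ly6c2 was 2.21, Ccr2 0.66 and Plac8 1.51 without quadrant 3. Chil3, with 0 UMIs at the rIL7 edge, gave no value there.

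By the macrophage list with 3 groups of spots in place of 5, Ly6c2 was 1.26 (control) and 1.94 (rIL7), Plac8 0.65 and 1.14, and rIL7 Ccr2 0.64. Among rIL7 interior spots they were 1.73, 0.77 and 0.56. There Vcan changed sign by the monocyte companion list, to -0.13, and by the transcription factor list, to -0.12. The median rho over the 15 pairs was 0.0866 and 0.0771 over blocks, and a second thinning turned the rho of Ly6c2 and Chil3 in the control to -0.00832. The 350 genes at least 1.5-fold higher became 150 with a 20 CPM minimum and 1942 without one, and the 236 lower became 97 and 1712. The causes were not tested. Depth limited Chil3 (10 UMIs), Vcan and all pairs within single spots.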
